A study of Homo sapiens with 24 samples.

Results

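The genes FXYD6, BAIAP2L1, S100A1, SNTB1 and SAMD11, whose RNA level set the line SG12 apart, were followed through all 8 groups of an RNA sequencing study of HGC27 cells, an established human gastric carcinoma line. Each was read under the count entry that lies opposite to it on the other DNA strand, in that order FXYD6-AS1, BRI3, S100A13, MTBP and NOC2L. These 5 entries, of 61578 count entries in all, were chosen by their measured levels, as entries with large changes in SG12. Their levels in SG12 and in its control line SGCTRL are therefore a description and carry no test. Tests are given only where neither of these lines enters, or for other entries of the same loci and gene families.

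The 24 libraries form 8 groups of 3 independent biological samples, 4 lines in 2 media, each grown for 3 days in high glucose DMEM. SG12 and SG21 carry the genotype label TMEM97 Knockout, SGCTRL carries the label SG Control, WT, and the fourth line is labelled Parental. Each line was grown in medium labelled LPDS or in medium labelled FBS. The treatment protocol in the labels names LPDS medium for every library, FBS groups included, so the medium is taken from each sample's own treatment label. The sources used here do not say whether SG12 and SG21 are single clones or pools, and each knockout line is 1 line, so a feature of SG12 cannot be told apart from an effect of its guide or its derivation.

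TMEM97, also called the sigma-2 receptor, is a membrane protein of the endoplasmic reticulum and lysosome that takes part in cholesterol handling. FXYD6 belongs to the FXYD family, small membrane proteins that adjust the sodium pump (Na,K-ATPase). BAIAP2L1, also known as IRTKS, has an I-BAR domain that bends membranes and links them to actin. S100A1 is an EF-hand calcium-binding protein best known from heart muscle. SNTB1, beta-1-syntrophin, is an adaptor of the dystrophin complex at the cell membrane. SAMD11 is a SAM domain protein described in mouse photoreceptors as part of a Polycomb complex.

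From a sequence table of RefSeq promoters (GRCh38.p14), 4 of the 5 genes are printed here, each as 300 bases with 250 before and 50 after the start. They are shown because FXYD6 and BAIAP2L1 were low and S100A1 high in SG12, which sets the starts of genes that moved oppositely side by side. FXYD6 has 2 listed starts, and the windows of S100A1, SAMD11 and the downstream FXYD6 start lie within the wider GENCODE spans given below, since the annotations place starts differently. Capitals mark matches on either strand to the sterol regulatory element core TCACNCCAC, the E-box CACGTG, the GC box GGGCGG, the CCAAT box CCAAT and the TATA box TATAAA.
FXYD6, upstream start, chr11:117877381-117877680, minus strand: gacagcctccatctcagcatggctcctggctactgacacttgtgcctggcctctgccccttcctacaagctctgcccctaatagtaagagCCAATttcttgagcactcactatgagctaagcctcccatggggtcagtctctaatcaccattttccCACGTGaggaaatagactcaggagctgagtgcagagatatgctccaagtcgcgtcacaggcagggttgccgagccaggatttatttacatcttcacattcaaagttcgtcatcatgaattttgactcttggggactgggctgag
FXYD6, downstream start, chr11:117876609-117876908, minus strand: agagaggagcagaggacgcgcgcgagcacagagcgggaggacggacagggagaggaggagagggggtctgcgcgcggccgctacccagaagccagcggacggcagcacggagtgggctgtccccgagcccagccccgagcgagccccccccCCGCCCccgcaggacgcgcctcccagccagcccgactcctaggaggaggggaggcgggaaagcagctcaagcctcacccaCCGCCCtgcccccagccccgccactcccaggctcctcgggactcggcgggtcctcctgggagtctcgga
BAIAP2L1, chr7:98401041-98401340, minus strand: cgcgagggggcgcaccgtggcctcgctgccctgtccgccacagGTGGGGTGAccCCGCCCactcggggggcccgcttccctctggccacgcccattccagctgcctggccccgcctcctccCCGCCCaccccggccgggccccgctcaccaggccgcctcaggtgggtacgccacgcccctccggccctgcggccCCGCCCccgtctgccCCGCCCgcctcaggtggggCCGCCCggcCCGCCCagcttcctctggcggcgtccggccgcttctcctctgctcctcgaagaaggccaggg
S100A1, chr1:153628184-153628483, plus strand: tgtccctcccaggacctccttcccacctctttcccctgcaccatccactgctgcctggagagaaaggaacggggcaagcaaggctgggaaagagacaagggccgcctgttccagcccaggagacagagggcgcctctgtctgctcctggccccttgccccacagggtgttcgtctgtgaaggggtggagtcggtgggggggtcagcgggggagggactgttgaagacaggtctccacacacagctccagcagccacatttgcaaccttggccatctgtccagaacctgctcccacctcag
SAMD11, chr1:925481-925780, plus strand: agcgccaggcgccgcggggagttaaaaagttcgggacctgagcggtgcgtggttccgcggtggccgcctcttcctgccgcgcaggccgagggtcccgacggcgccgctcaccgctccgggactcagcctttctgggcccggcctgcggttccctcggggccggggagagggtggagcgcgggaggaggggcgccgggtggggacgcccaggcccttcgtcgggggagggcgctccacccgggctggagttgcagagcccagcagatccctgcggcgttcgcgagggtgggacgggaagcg

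The BAIAP2L1 promoter held 1 match to the sterol regulatory element core, which 1.13% of all 35116 promoters of this length hold. It also held 6 GC boxes, a motif present in 45% of all promoters. The downstream FXYD6 start had 2 GC boxes, and the upstream one had 1 E-box and 1 CCAAT box, present in 7.26% and 34.6% of all promoters. No TATA box, present in 11.5% of all promoters, was found in the 5 windows, and S100A1 and SAMD11 matched none of the 5 motifs. CG dinucleotides numbered 38 for SAMD11, 32 for BAIAP2L1, 28 for the downstream and 5 for the upstream FXYD6 start, and 6 for S100A1, against a median of 14. Such matches are letters in a window and do not show binding.

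The kit keeps strand and the deposited counts lie mostly on the strand opposite to each named gene, so an entry reports mainly the gene across from it. FXYD6 lies on chromosome 11 at 117836976-117877486 on the minus strand (GRCh38, GENCODE 29), and 625 bases of its exons, 12.2% of them, face exons of FXYD6-AS1 at 117837168-117837792. BAIAP2L1 lies on chromosome 7 at 98291651-98401068 on the minus strand and faces BRI3 over 795 exonic bases in 4 stretches, 16.6% of its exons. S100A1 lies on chromosome 1 at 153627926-153632039 on the plus strand and faces S100A13 over 235 bases in 2 stretches, 7.76% of its exons. SNTB1 lies on chromosome 8 at 120535745-120813273 on the minus strand and faces MTBP over 297 bases, 4.32% of its exons. SAMD11 lies on chromosome 1 at 923928-944581 on the plus strand and faces NOC2L over its last 378 bases, 9.07% of its exons. These windows differ in length, so levels are not compared between genes.

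Reads of the named gene itself also reach an entry, and how many cannot be told apart from the counts. As a guide, 13070 protein-coding entries that face no annotated gene had a median of 0.344 CPM (the counts-per-million scale, relative to the gene reads of a library), a 90th percentile of 6.02 CPM and a 99th percentile of 50.1 CPM. NOC2L stood above that 99th percentile in all 24 libraries, and MTBP in all but 2, both SG12 in LPDS. FXYD6-AS1 and BRI3 in SG12, and S100A13 in the other lines, lay below it, so their lowest levels are within what an entry can hold with no opposite gene.

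Libraries held 2399212 to 5543678 gene reads, 5.28% to 5.54% of the uniquely aligned reads. Their share of ambiguous reads split them, with 2.10% to 2.24% in 8 libraries (all 6 of SGCTRL and replicates 2 and 3 of SG21 in LPDS) and 2.58% to 3.15% in the other 16. SG21 in LPDS is thus the only group on both sides. A term for the split is therefore set by its replicate 1 against its replicates 2 and 3, and cannot settle an effect of the split. SG12, SG21 in FBS and parental cells lie wholly on the high side, so SG12 minus parental is the comparison within one side and is given beside SG12 minus SGCTRL. It is not matched on this share in LPDS, where SG12 held 2.99% to 3.15% and parental cells 2.60% to 2.65%. In FBS SG12 held 2.63% to 2.80%, so its 2 media differ in this share too. The targeted gene, TMEM97, was read under IFT20 over 361 bases at its end, a window that does not check a knockout by small edits. In LPDS it averaged 190.0 ± 16.2 CPM in SG12, 126 ± 9.45 in SG21, 160 ± 6.13 in SGCTRL and 153 ± 15.8 in parental cells (SD, n = 3 each), and in FBS 51.6 ± 4.44 in SG12, 75.4 ± 1.85 in SG21, 129 ± 10.8 in SGCTRL and 106 ± 15.8 in parental cells. The cell type label is Epithelial, yet the 3 epithelial markers that could be read across strands, CDH1, KRT8 and KRT18, reached at most 2.13 CPM in any group mean. Of 6 mesenchymal markers read, group means ranged over 14500 to 30000 CPM for VIM, 88.2 to 131 for SPARC, 35.5 to 96.6 for ZEB2, 24.2 to 86.6 for TWIST1, 5.94 to 15.9 for ZEB1 and 0.092 to 1.06 for CDH2. The other 4 epithelial markers on the list have no entry across from them, and LYZ, the one leukocyte marker read, reached at most 0.582 CPM.

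**Figure D1:**
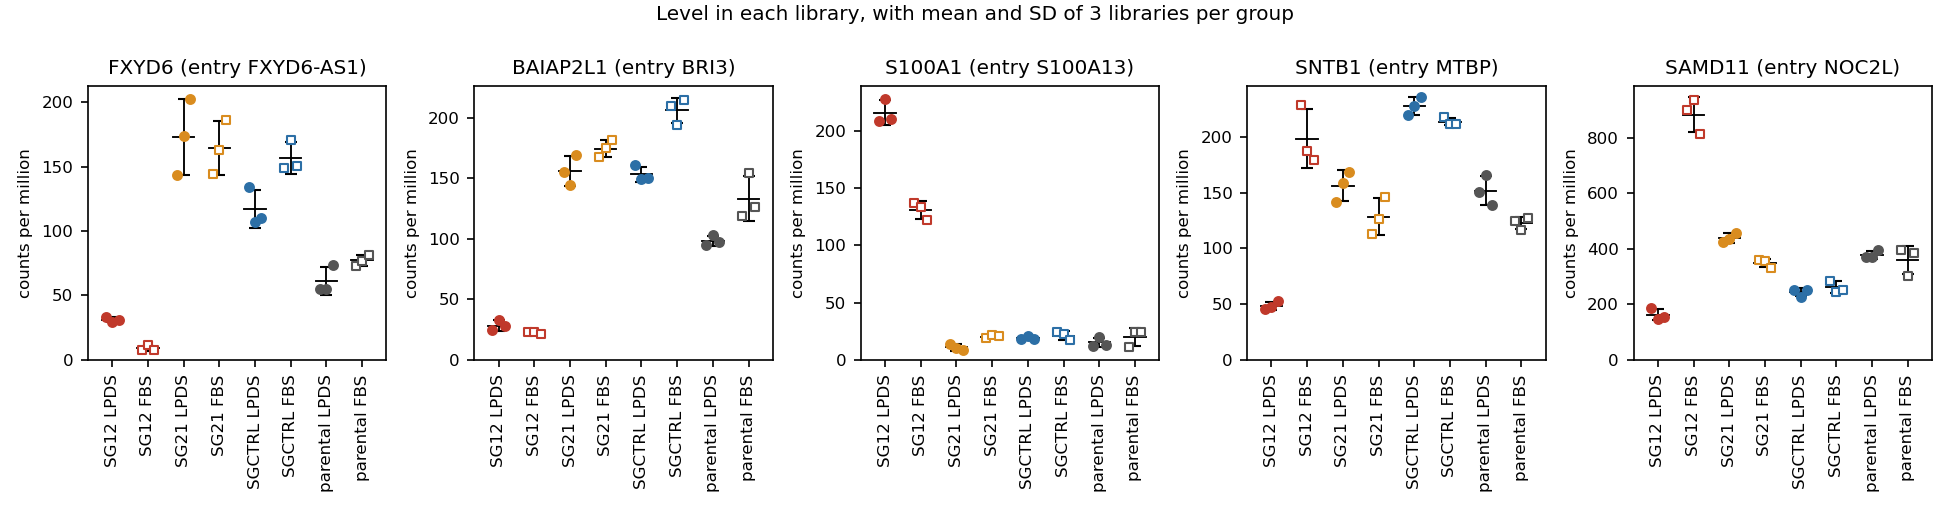
Level of each gene in CPM (linear axes from 0), 1 panel per gene, read under the entry in brackets. Filled circles are LPDS libraries and open squares FBS libraries, and black bars give the mean and SD of 3 libraries. FXYD6 and BAIAP2L1 are low and S100A1 high in both SG12 groups, while SNTB1 is low in SG12 only in LPDS and SAMD11 is high in SG12 in FBS and low in LPDS.

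FXYD6 was low in SG12 in both media, and of the 5 genes it was the most reduced in FBS. In LPDS its entry had 33.2, 29.2 and 31.0 CPM in SG12, 143, 174 and 202 in SG21, 134, 107 and 110.2 in SGCTRL, and 55.3, 55.0 and 73.4 in parental cells. In FBS it had 7.47, 11.4 and 7.90 CPM in SG12, 144, 163 and 186 in SG21, 149, 171 and 150.3 in SGCTRL, and 72.9, 77.0 and 81.7 in parental cells. Every SG12 library lay below every library of the other 3 lines in the same medium, while SG21 and SGCTRL overlapped in FBS but not in LPDS. The log2 fold change of SG12 over SGCTRL was -1.90 ± 0.15 in LPDS and -4.10 ± 0.18 in FBS (± SE), and over parental cells it was -0.94 ± 0.16 in LPDS and -3.05 ± 0.18 in FBS. Parental cells were the second lowest line, since SGCTRL stood 0.95 ± 0.14 above them in LPDS and 1.04 ± 0.14 in FBS.

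SG12 was also the line in which FXYD6 differed most by medium. SG12 averaged 31.1 ± 2.02 CPM in LPDS and 8.91 ± 2.14 in FBS (SD, n = 3 each), a log2 fold change of 1.79 ± 0.20 with no overlap of libraries. The same change was -0.41 ± 0.14 in SGCTRL, where all LPDS libraries were below all FBS libraries, and 0.03 ± 0.14 in SG21 and -0.32 ± 0.15 in parental cells, where they overlapped. The SG12 libraries in FBS are the thinnest data here, with 20 to 36 reads of this entry in each.

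BAIAP2L1 was low in SG12 in both media, with little change between them. In LPDS its entry had 24.3, 32.8 and 27.8 CPM in SG12, 155, 144 and 169 in SG21, 161, 149 and 150.3 in SGCTRL, and 94.5, 103 and 97.1 in parental cells. In FBS it had 23.1, 22.8 and 21.3 CPM in SG12, 167, 175 and 181 in SG21, 209.5, 194 and 214 in SGCTRL, and 119, 154 and 126 in parental cells. No SG12 library reached the level of any other line, and SG21 overlapped SGCTRL in LPDS and lay below it in FBS. The log2 fold change of SG12 over SGCTRL was -2.43 ± 0.13 in LPDS and -3.18 ± 0.14 in FBS, and over parental cells -1.76 ± 0.13 in LPDS and -2.53 ± 0.14 in FBS. Between media the change was 0.33 ± 0.15 in SG12, -0.20 ± 0.12 in SG21, -0.42 ± 0.12 in SGCTRL and -0.43 ± 0.12 in parental cells.

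S100A1 was high in SG12 in both media, most in LPDS. In LPDS its entry had 209, 228 and 210.1 CPM in SG12, 13.96, 10.1 and 8.61 in SG21, 18.2, 21.2 and 18.6 in SGCTRL, and 12.4, 20.1 and 13.3 in parental cells. In FBS it had 137, 133 and 122 CPM in SG12, 18.7, 22.0 and 20.5 in SG21, 24.1, 22.5 and 17.2 in SGCTRL, and 10.8, 24.1 and 24.2 in parental cells. Each SG12 library thus stood above every library of the other lines, and those lines overlapped one another except that SG21 lay below SGCTRL in LPDS. The log2 fold change of SG12 over SGCTRL was 3.49 ± 0.20 in LPDS and 2.65 ± 0.20 in FBS, and over parental cells 3.83 ± 0.21 in LPDS and 2.80 ± 0.20 in FBS. SG12 averaged 216 ± 10.9 CPM in LPDS and 131 ± 7.52 in FBS (SD, n = 3 each), a log2 fold change of 0.72 ± 0.17.

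SNTB1 set SG12 apart in LPDS and not in FBS. In LPDS its entry had 45.8, 47.5 and 52.7 CPM in SG12, 141, 159 and 169 in SG21, 219.9, 228 and 236 in SGCTRL, and 151, 166 and 139 in parental cells. In FBS it had 229, 187 and 179.6 CPM in SG12, 113, 126 and 146 in SG21, 218, 212 and 212 in SGCTRL, and 125, 116 and 127 in parental cells. The SG12 libraries in LPDS lay below all others, while in FBS they overlapped SGCTRL and lay above SG21 and parental cells. SG21 and parental cells overlapped in both media. The log2 fold change of SG12 over SGCTRL was -2.22 ± 0.12 in LPDS and -0.09 ± 0.11 in FBS, and over parental cells -1.61 ± 0.12 in LPDS and 0.74 ± 0.12 in FBS. Within SG12, LPDS over FBS gave -2.03 ± 0.12, against 0.10 ± 0.11 in SGCTRL, 0.25 ± 0.11 in SG21 and 0.32 ± 0.12 in parental cells. In FBS, then, the label of a gene that marks SG12 does not hold for SNTB1 against its control line.

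SAMD11 was lower in SG12 than in any other line in LPDS, and higher in FBS. In LPDS its entry had 186, 147 and 156 CPM in SG12, 425, 434 and 459 in SG21, 251, 227.5 and 252.5 in SGCTRL, and 369, 370.2 and 395 in parental cells. In FBS it had 901.5, 936 and 814 CPM in SG12, 360.3, 356 and 332 in SG21, 285.5, 246 and 251 in SGCTRL, and 396, 303 and 384 in parental cells. Every library of SG12 was below all others in LPDS and above all others in FBS. Among the rest, SGCTRL was lowest in both media, and SG21 and parental cells overlapped in FBS but not in LPDS. The log2 fold change of SG12 over SGCTRL was -0.57 ± 0.11 in LPDS and 1.78 ± 0.11 in FBS, and over parental cells -1.18 ± 0.11 in LPDS and 1.33 ± 0.10 in FBS. LPDS over FBS gave -2.44 ± 0.11 in SG12, against -0.09 ± 0.10 in SGCTRL, 0.30 ± 0.10 in SG21 and 0.07 ± 0.10 in parental cells.

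**Figure D2:**
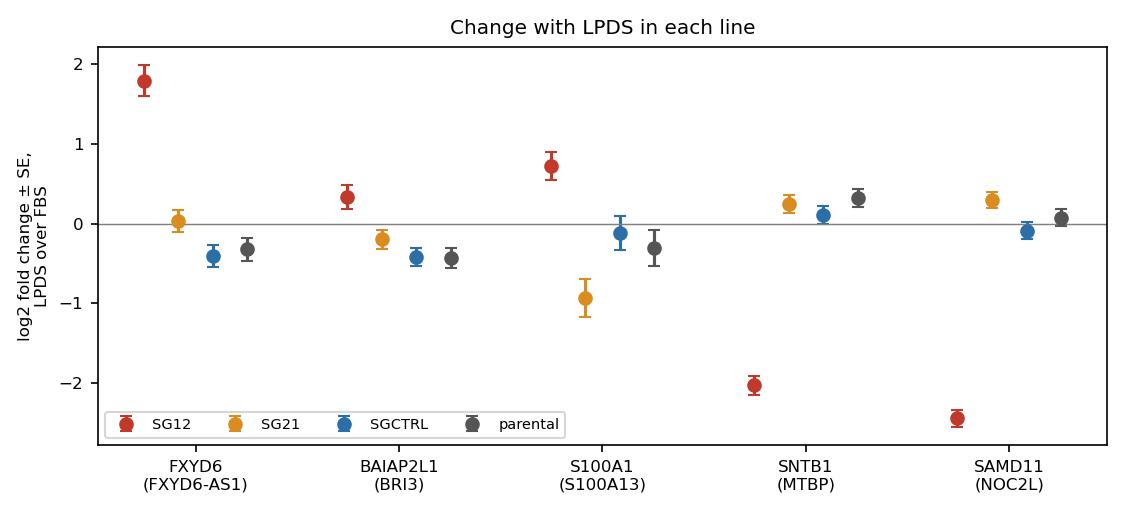
Log2 fold change of LPDS over FBS for each gene in each line, with the SE from the edgeR fit as bars. In SG12 the values run from -2.44 for SAMD11 to 1.79 for FXYD6, while in the other 3 lines they lie between -0.93 and 0.32.

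The medians over all 12822 tested entries were close to 0 in these comparisons, -0.01 for SG12 minus SGCTRL in LPDS, -0.03 in FBS and 0.02 for LPDS minus FBS in SG12. At an adjusted p under 0.05 (edgeR, Benjamini-Hochberg), 10.9% of all entries passed in SG12 minus SGCTRL in LPDS, 25.2% in FBS and 22.5% in LPDS minus FBS in SG12. The share was 9.69% in LPDS and 26.5% in FBS for SG12 minus parental, 0.842% in LPDS and 18.2% in FBS for SGCTRL minus parental, and 2.25% for LPDS minus FBS in SGCTRL. For the difference in LPDS response it was 10.4% between SG12 and SGCTRL, 8.04% between SG12 and parental cells and 12.9% between SG12 and SG21. Nothing is read from the members' own place in these comparisons, whose libraries served the choice. Across the 8 group means, log2 CPM of FXYD6 and BAIAP2L1 had a Pearson r of 0.947, and S100A1 ran opposite to both, with r of -0.807 and -0.907. SNTB1 and SAMD11 had r of 0.499. The 8 points include the SG12 and SGCTRL groups that the choice used.

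For FXYD6 and BAIAP2L1 the second knockout line, SG21, lay above parental cells, where SG12 lay below them. FXYD6 was higher in SG21 than in parental cells, by a log2 fold change of 1.47 ± 0.14 in LPDS (adjusted p = 1.88e-09) and 1.11 ± 0.14 in FBS (adjusted p = 2.7e-07, edgeR quasi-likelihood test over all 12822 entries). BAIAP2L1 was higher in SG21 by 0.64 ± 0.12 in LPDS (adjusted p = 0.000247) and by 0.41 ± 0.12 in FBS (adjusted p = 0.00992). For both genes all 3 SG21 libraries lay above all 3 parental libraries in each medium. In all, 2 of 5 members passed in each medium, both upward, against 11.3% of all entries in LPDS and 24.1% in FBS. With a term for the library split, which leaves SG21 in LPDS to its replicate 1, the LPDS changes were 1.24 for FXYD6 and 0.67 for BAIAP2L1. The BAIAP2L1 call in FBS was lost with the spread of the compared groups alone (adjusted p = 0.0631), without replicate 1 of parental cells in FBS (0.101) and without replicate 3 of SG21 in FBS (0.0864). The other lines were not all equal either. SGCTRL, a line with no TMEM97 knockout label, stood above parental cells by 0.95 ± 0.14 in LPDS and 1.04 ± 0.14 in FBS for FXYD6, and by 0.66 ± 0.12 in LPDS and 0.65 ± 0.12 in FBS for BAIAP2L1, values that carry no test because SGCTRL served the choice.

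S100A1, SNTB1 and SAMD11 did not pass between SG21 and parental cells. In LPDS, SG21 minus parental was -0.53 ± 0.25 for S100A1 (adjusted p = 0.173), 0.02 ± 0.11 for SNTB1 (0.952) and 0.19 ± 0.10 for SAMD11 (0.254). In FBS it was 0.10 ± 0.22 for S100A1 (adjusted p = 0.792), 0.08 ± 0.12 for SNTB1 (0.639) and -0.03 ± 0.10 for SAMD11 (0.858). The SG12 values for the same genes are given above, and the difference between SG12 and SG21 was not tested. SAMD11 in LPDS had its SG21 libraries wholly above the parental ones although the call was missed.

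**Figure D3:**
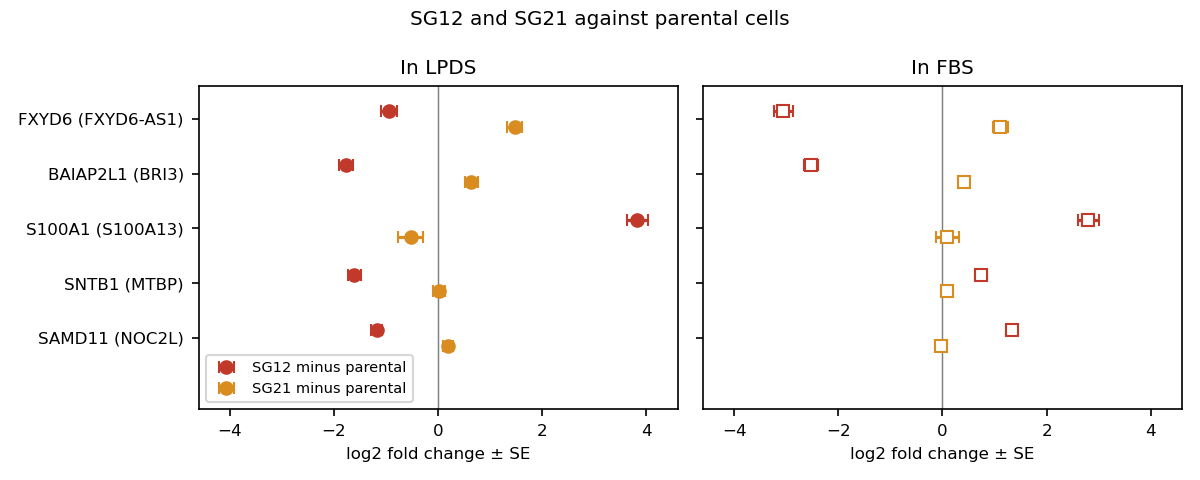
Log2 fold change ± SE of SG12 (red) and SG21 (orange) over parental cells for each gene in LPDS (left) and FBS (right). SG12 values were used in choosing the genes and have no test. SG21 lies on the other side of 0 from SG12 for FXYD6 and BAIAP2L1 in both media.

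Outside SG12 and SGCTRL, 1 member passed between media in SG21 and another in parental cells. In SG21, S100A1 fell by 0.93 ± 0.24 on the log2 scale, with 10.9 ± 2.75 CPM in LPDS and 20.4 ± 1.67 in FBS (adjusted p = 0.0175). It was the 1 of 5 members to pass there, against 3.76% of all entries. That call rests on a split group, since replicates 2 and 3 of SG21 in LPDS lie on the low side of ambiguous reads and all of SG21 in FBS lies on the high side. With a term for this split the change was -0.55. That fit leaves SG21 in LPDS to its replicate 1 alone, so it cannot decide the call. The call was lost with the spread of the compared groups alone (adjusted p = 0.0601) and without each of 4 of the 6 libraries. In parental cells, BAIAP2L1 fell by 0.43 ± 0.12, with 98.1 ± 4.23 CPM in LPDS and 133 ± 18.7 in FBS (adjusted p = 0.0304), the 1 of 5 members to pass against 4.67% of all entries. It was lost without replicate 2 of FBS (adjusted p = 0.244), without replicate 1 (0.0923) or replicate 3 (0.158) of LPDS, and with other filters on low counts. The response to LPDS did not differ detectably between SG21 and parental cells for any member, with 0 of 5 passing against 0.835% of all entries and adjusted p of 0.372 to 0.896.

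The rows named for the 5 genes themselves report mainly what lies opposite to them, and the choice did not use their values. They lie on the same loci as the chosen entries, so their tests are not independent of the choice. Whether reads cross between the strands of a locus was not tested. The BAIAP2L1 row faces BRI3, a lysosomal membrane protein, and the SAMD11 row faces NOC2L, a nucleolar protein of ribosome assembly. The S100A1 row faces S100A13, a calcium-binding protein of growth factor release, over 39.9% of its opposite bases and an antisense RNA over 54.3%. The SNTB1 row faces MTBP, a protein of replication origin firing, over 40.5% and an antisense RNA over 59.5%. The FXYD6 row averaged 0.115 CPM and was too low to test.

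In SG12 against SGCTRL, 3 of 4 testable rows passed in LPDS and 2 of 4 in FBS, where 10.9% and 25.2% of all entries did. The row named S100A1 averaged 109.7 ± 6.54 CPM in SG12 and 58.1 ± 4.09 in SGCTRL in LPDS, and 117 ± 7.52 in SG12 and 63.9 ± 4.53 in SGCTRL in FBS. It rose by 0.93 ± 0.13 in LPDS (adjusted p = 5.79e-06) and by 0.89 ± 0.13 in FBS (adjusted p = 3.67e-06). The row named SNTB1 averaged 10.8 ± 3.22 CPM in SG12 and 43.0 ± 8.54 in SGCTRL in LPDS, where it fell by 1.98 ± 0.25 (adjusted p = 4.4e-07), and 53.9 ± 3.74 in SG12 and 58.5 ± 14.8 in SGCTRL in FBS, where the change of -0.10 ± 0.21 did not pass (adjusted p = 0.775). The row named BAIAP2L1 fell by 0.98 ± 0.27 in LPDS (adjusted p = 0.0141) and by 1.39 ± 0.30 in FBS (adjusted p = 0.000522). That row is low, with 10.1 ± 0.958 CPM in SG12 and 20.1 ± 2.26 in SGCTRL in LPDS, and 5.91 ± 1.60 in SG12 and 15.9 ± 3.14 in SGCTRL in FBS. SG12 in FBS held 12 to 22 reads of it per library. Its mean there lay below the 90th percentile (6.02 CPM) of protein-coding entries that face no gene. The row named SAMD11 did not pass, at 0.23 ± 0.10 in LPDS (adjusted p = 0.137) and 0.09 ± 0.10 in FBS (adjusted p = 0.555). With a term for the library split 1 row passed in each medium. Against parental cells, which share the side of SG12, the S100A1 row passed in both media (0.79 ± 0.13 in LPDS, adjusted p = 9.85e-05, and 1.40 ± 0.14 in FBS, adjusted p = 5.8e-10) and the SNTB1 row fell by 1.64 ± 0.25 in LPDS (adjusted p = 2.74e-05) and rose by 0.58 ± 0.22 in FBS (adjusted p = 0.0475). In the same comparison the BAIAP2L1 row did not pass in LPDS, at -0.53 ± 0.28 (adjusted p = 0.24), and fell by 1.21 ± 0.30 in FBS (adjusted p = 0.00251), while the SAMD11 row stood at -0.15 ± 0.10 in LPDS (adjusted p = 0.382) and fell by 0.40 ± 0.10 in FBS (adjusted p = 0.00212).

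With medium, the row named SNTB1 was the 1 of 4 to pass in SG12, a share close to the 22.5% of all entries. It fell by 2.32 ± 0.25 with LPDS (adjusted p = 7.28e-09), and its response differed from that of SGCTRL by -1.88 ± 0.33 (adjusted p = 0.000143), from that of parental cells by -2.22 ± 0.34 (1.56e-05) and from that of SG21 by -1.79 ± 0.34 (0.000396). Both strands of the SNTB1 and MTBP locus were thus low in SG12 in LPDS, and whether reads of one strand reach the other row was not tested. For SAMD11 the strands parted, since its own-named row changed by -0.04 ± 0.10 with LPDS in SG12 (adjusted p = 0.813) while the NOC2L row stood at 163 ± 20.2 CPM in LPDS and 884 ± 62.7 in FBS. Over the 8 group means the 2 rows of a locus had a Pearson r of 0.905 for SNTB1, 0.869 for S100A1, 0.773 for BAIAP2L1 and 0.258 for SAMD11.

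In SG21 against SGCTRL the named row of S100A1 fell where it rose in SG12. The S100A1 row fell by 0.42 in LPDS (adjusted p = 0.0459) and by 0.80 in FBS (adjusted p = 9.15e-05). The SNTB1 row fell by 0.92 in LPDS (adjusted p = 0.0054) and 0.83 in FBS (adjusted p = 0.00717), and the SAMD11 row rose by 0.57 in LPDS (adjusted p = 9.3e-05) and by 0.62 in FBS (adjusted p = 1.85e-05). The 3 rows that passed in each medium compare with 10.7% of all entries in LPDS and 14.1% in FBS. With a term for the split, 1 passed in FBS. Against parental cells, the S100A1 row was -0.56 in SG21 in LPDS (adjusted p = 0.00643) and -0.285 in FBS (0.153). The SNTB1 row did not pass, at -0.58 in LPDS (adjusted p = 0.108) and -0.15 in FBS (0.669). Neither did the SAMD11 row, at 0.19 in LPDS (0.225) and 0.13 in FBS (0.347). SGCTRL differed from parental cells in FBS by 0.52 for the S100A1 row (adjusted p = 0.00893), 0.68 for SNTB1 (0.0261) and -0.49 for SAMD11 (0.000579).

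A further entry across from S100A1, ENSG00000272030, shares 320 exonic bases with it and also lies opposite CHTOP. It averaged 343 ± 33.5 CPM in SG12, 27.9 ± 5.28 in SG21, 40.3 ± 3.99 in SGCTRL and 31.2 ± 4.94 in parental cells in LPDS (SD, n = 3 each), and 238 ± 25.9 in SG12, 46.3 ± 10.3 in SG21, 42.5 ± 5.62 in SGCTRL and 39.9 ± 10.8 in parental cells in FBS. Its pattern was the one most like that of the S100A13 entry of 9540 entries compared, with a Pearson r of 0.998 over the 8 group means. It lies at the same locus on chromosome 1, so it is not counted as an independent gene. Whether its reads come from S100A1 or from CHTOP was not tested. The 2 sparse entries within SNTB1 held few reads, with 3 reads in SG12 in LPDS and 21 in SG12 in FBS for ENSG00000272502, and 8 and 17 reads for ENSG00000248318.

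**Figure D4:**
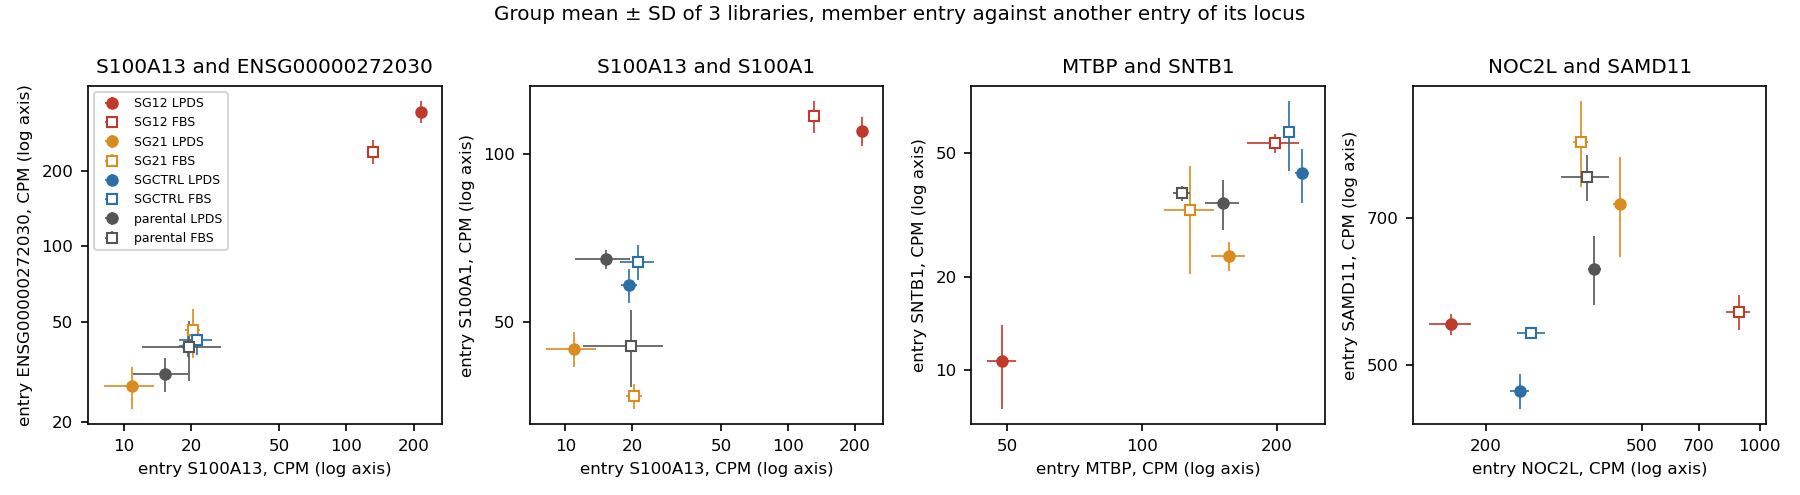
Group means ± SD in CPM on log axes, the entry read for a gene against another entry of its locus. The first panel sets S100A13 against ENSG00000272030, where both SG12 groups lie far from the other 6. The others set the entry against the row named for the gene itself, and SAMD11 is the locus with the lowest correlation, r = 0.258.

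Each member's pattern had close company in the table, as a description over 8 group means. For FXYD6 the 3 most similar entries were PUS3 (r = 0.993), NME7 (r = 0.993) and ENSG00000269292, which reads calmodulin 3, CALM3 (r = 0.99). NME7 averaged 9.82 CPM and faces the sodium pump subunit ATP1B1. For BAIAP2L1 they were BMAL2-AS1 (r = 0.988), ENSG00000264475, which reads the laminin chain LAMA1 (r = 0.983), and ENSG00000233735, which reads the actin nucleator FMN2 (r = 0.982). After ENSG00000272030, S100A1 was followed by ENSG00000263096 (r = 0.977) and ENSG00000257225, which reads PRICKLE1, a planar polarity protein (r = 0.974). For SNTB1 they were IRAK4 (r = 0.966), KXD1-AS1 (r = 0.944) and PRSS54 (r = 0.942), and for SAMD11 ELOA-AS1 (r = 0.955), MMADHC-DT (r = 0.952) and ENSG00000287299 (r = 0.951). The 8 points include the SG12 groups on which the members were chosen.

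The families of these genes could be read only in part, since an entry across from a gene exists for few of them. Of 74 genes listed in 5 families (the sodium pump, I-BAR proteins and partners, S100 proteins, the dystrophin complex and SAM domain proteins), 8 were measured, and none of the 18 S100 genes was. In SG12 against SGCTRL, 1 rose and 1 fell of the 8 in LPDS, where 10.9% of all entries passed, with a median log2 fold change of -0.05 against -0.01 over all entries. In FBS 2 rose and 2 fell, where 25.2% of all entries passed, with a median of -0.13 against -0.03, and 1 passed once the split entered the fit. Against parental cells, on the same side of the split as SG12, 2 rose and none fell in LPDS, and 4 rose and 2 fell in FBS, beside 9.69% of all entries in LPDS and 26.5% in FBS. With LPDS in SG12, 1 rose and 2 fell, beside 22.5% of all entries, and 1 passed in all with no count filter. In SG21 against SGCTRL none rose, while 1 fell in LPDS and 3 fell in FBS, beside 10.7% of all entries in LPDS and 14.1% in FBS, and 1 passed in FBS with the split term.

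In the sodium pump list, 1 gene fell and 1 rose in FBS. The pump subunit ATP1B1 (entry NME7) fell by 2.49 ± 0.41 in SG12 against SGCTRL in FBS (adjusted p = 1.26e-05), and FXYD1 (entry ENSG00000279619) rose by 0.67 ± 0.17 (adjusted p = 0.0025). FXYD1 was above parental cells in FBS in SG12, by 0.86 (adjusted p = 0.000155), and in SG21, by 0.52 (0.0226). SG12 minus SG21 in FBS did not pass for it, at 0.35 (adjusted p = 0.113). In LPDS FXYD1 did not pass in SG12, at 0.04 against SGCTRL (adjusted p = 0.931) and 0.13 against parental cells (0.691). Against parental cells in FBS, ATP1B1 fell by 1.93 ± 0.42 in SG12 (adjusted p = 0.000664). In SG21 against parental cells in LPDS, ATP1B1 was 1.20 ± 0.35 higher (adjusted p = 0.0177), while in FBS it did not pass, at 0.58 ± 0.34 (adjusted p = 0.217). It did not pass in SG12 in LPDS, at -0.95 ± 0.36 against SGCTRL (adjusted p = 0.0908) and -0.35 ± 0.38 against parental cells (adjusted p = 0.633). The NME7 entry averaged 9.82 CPM. That lies between the 90th percentile (6.02 CPM) and the 99th percentile (50.1 CPM) of protein-coding entries that face no gene. Reads of NME7 itself cannot be told apart from those of ATP1B1. MTSS2 (entry ENSG00000279569), an I-BAR protein, rose by 0.67 in SG12 against SGCTRL in FBS (adjusted p = 1.16e-05), and by 1.03 ± 0.11 against parental cells (adjusted p = 2.89e-09). In LPDS it did not pass, at 0.21 against SGCTRL (adjusted p = 0.223) and 0.29 against parental cells (adjusted p = 0.0847).

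WASF3 (entry ENSG00000285935), an actin regulator, was higher in SG12 than in SG21, by 1.60 ± 0.11 in LPDS (adjusted p = 1.12e-13) and 1.25 ± 0.11 in FBS (adjusted p = 2.19e-11). It was -1.15 in SG21 against SGCTRL in LPDS (adjusted p = 1.04e-09) and -1.35 in FBS (adjusted p = 1.5e-11), whereas in SG12 it was 0.44 in LPDS (adjusted p = 0.00383) and -0.10 in FBS, where it did not pass. SGCE (entry PEG10), a sarcoglycan of the dystrophin complex, fell by 1.73 in SG12 (adjusted p = 0.000512) and by 1.44 in SG21 (adjusted p = 0.00391) against SGCTRL in FBS. Against parental cells in FBS it stood at -1.61 in SG12 (adjusted p = 0.00124) and -1.33 in SG21 (0.00566). In LPDS SGCE did not pass against SGCTRL, at -0.98 in SG12 (adjusted p = 0.085) and 0.17 in SG21 (0.833). Nor did it pass there against parental cells, at -0.66 in SG12 (adjusted p = 0.29) and 0.49 in SG21 (0.43). The PEG10 entry averaged 10 CPM, between the 90th percentile (6.02 CPM) and the 99th percentile (50.1 CPM) of protein-coding entries that face no gene. PEG10 is itself a gene, and reads of its own strand cannot be told apart from those of SGCE. DTNB (entry DTNB-AS1), a dystrobrevin, fell by 0.74 in SG12 against SGCTRL in LPDS (adjusted p = 0.0346). Against parental cells in LPDS it did not pass, at -0.64 (adjusted p = 0.0835). SAMD14 (entry PDK2) was 0.74 lower in SG21 than in SGCTRL in FBS (adjusted p = 0.000529). Against parental cells in FBS it did not pass in SG21, at -0.18 (adjusted p = 0.42). In the same medium it was higher than in parental cells by 0.56 in SGCTRL (adjusted p = 0.00776) and 0.83 in SG12 (6.05e-05). Reads of PDK2 itself cannot be told apart from those of SAMD14.

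Genes near the 5 loci were counted as a last description. Within 500 kb on either side, 67 entries were tested, the rows named for the genes included, and in SG12 against SGCTRL 16 rose and 4 fell in LPDS (29.9%), and 13 rose and 6 fell in FBS (28.4%). In LPDS the share for the SAMD11 locus was 34.1%, with 14 of 41 entries higher and none lower, beside 10.9% of all entries. In FBS 8 of those 41 rose and none fell, below the 25.2% of all entries. The 14 are not all separate genes, since ENSG00000217801 and ENSG00000273443 face each other, and INTS11 reads PUSL1, whose own row is also among them. SG12 and SGCTRL lie on opposite sides of the library split, and the neighbours were not compared with parental cells. Whether the rise belongs to the region was not tested. The row named TMPRSS13, 52 kb from the start of FXYD6 on the same strand, has no source gene across from it and was picked after its values were seen. It fell by 2.27 ± 0.32 in SG12 against SGCTRL in FBS (adjusted p = 8.52e-07), did not pass in LPDS at -0.22 ± 0.26 (adjusted p = 0.667), and rose by 2.09 ± 0.32 with LPDS in SG12 (adjusted p = 7.23e-06). Close to S100A1, the rows named S100A3, S100A4, S100A5 and S100A6, none with a source gene across from it, were tested in SG12 against SGCTRL. S100A5 fell by 1.10 in LPDS (adjusted p = 8.57e-06) and fell by 1.73 in FBS (adjusted p = 3.82e-10), and S100A6 fell by 1.39 in LPDS (adjusted p = 1.9e-05) and fell by 1.35 in FBS (adjusted p = 1.02e-05). S100A3 rose by 0.48 in LPDS (adjusted p = 0.0467) and stood at 0.38 in FBS (adjusted p = 0.0879), and S100A4 did not pass, at -0.36 in LPDS (adjusted p = 0.356) and -0.61 in FBS (adjusted p = 0.0567).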

How the data were processed

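RNA from 24 cultures of HGC27 cells was sequenced after total RNA isolation with a Qiagen RNeasy kit and library construction with an Illumina stranded kit (Ribo-Zero Plus) that depletes ribosomal RNA, per the labels' protocols. Per the submitters' processing notes, bcl2fastq and STAR were used with build hg38, and their versions, the counting program, its strand setting and its annotation are not given in the sources used here. The authors deposited raw counts of reads by gene name, with a table for each library, and closing rows that name no gene (94.3% to 94.6% of uniquely aligned reads on no gene) stayed out of library sizes.

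Entries were set across strands with GENCODE 29 (56747 of 61578 matched); a gene is read under an entry whose opposite-strand exonic overlap is at least 50 bases and at least 80% that gene's. Counts were tested in R 4.3.3 with the quasi-likelihood F test of edgeR 4.0.16 (TMM, filterByExpr, 1 mean per group, all 24 libraries, 12822 entries), with Benjamini-Hochberg adjustment over all entries and a threshold of 0.05. Standard errors were calculated back from the F statistic and are approximate. CPM are counts over the gene reads of a library, with no TMM factor. The step was tested on simulated data. Motifs were counted in Python 3.11.15.

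The members and lists were chosen with earlier results of these data known. Members were not tested where SG12 or SGCTRL enters. Named entries are the members, the rows of the genes themselves, up to 4 family genes per list (1 gene the rule names is not reported here), and the 3 entries most alike over 8 groups among those whose average log2 CPM reaches 2. The 500 kb neighbours and the further entries of a locus were chosen after the data were seen. Alternatives were DESeq2 1.42.0 (its size factors, and its Wald test), 2 other filters, the spread of the compared groups alone, a replicate block, all uniquely aligned reads as library size, a term for the library split, and each library left out.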

Additional observations from a re-analysis of the deposited data

Results flagged for a closer look

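For several genes, every LPDS library of SG12 lay on one side of every FBS library of SG12, and in another line on the other side. Since SG12 was used to choose them, the differences were not tested. How many of all entries show such opposite moves was not counted. The difference in LPDS response from SG12 passed for 10.4% of all entries against SGCTRL, 8.04% against parental cells and 12.9% against SG21. For FXYD6 the LPDS response of SG12 minus that of SGCTRL was 2.20 on the log2 scale. For BAIAP2L1 it was 0.75 against SGCTRL and 0.77 against parental cells. For S100A1 it was 1.65 against SG21. For SNTB1 it was -2.13 against SGCTRL and -2.34 against parental cells, and for SAMD11 it was -2.74 against SG21.

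For rows named for the genes themselves, some differences in LPDS response passed the edgeR test. These rows share their loci with the chosen entries, so the tests are not independent of the choice. The SNTB1 row had a Pearson r of 0.905 with the chosen MTBP entry over the 8 group means. The row named SNTB1 differed in SG12 by -1.88 from SGCTRL (adjusted p = 0.000143), by -2.22 from parental cells (adjusted p = 1.56e-05) and by -1.79 from SG21 (adjusted p = 0.000396). The row named S100A1 differed by -0.61 from parental cells (adjusted p = 0.0418), where the row itself stood at -0.09 with LPDS in SG12 (adjusted p = 0.672) and rose by 0.52 in parental cells (adjusted p = 0.025). Its response in SG12 did not pass against SGCTRL, at 0.04 (adjusted p = 0.919), or SG21, at -0.34 (adjusted p = 0.275).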

How the results depend on the processing

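The number of members called in SG21 against parental cells was 2 in LPDS in every alternative, and in FBS 2, with 1 from the spread of the compared groups alone and 1 to 2 with a library left out. For LPDS against FBS in SG21 it was 1, with 2 by the DESeq2 Wald test and 2 with all uniquely aligned reads as library size (SAMD11 joined, adjusted p = 0.0383 and 0.0409), 0 with the compared groups' spread, 0 with the split term and 0 to 1 with a library left out. In parental cells it was 1, with 0 without a filter, 0 with the stricter filter, 0 with the compared groups' spread and 0 to 1 with a library left out. Named rows called in SG12 against SGCTRL went to 1 in both media with the split term, and in SG21 against SGCTRL to 1 in FBS with the split term and 1 to 4 in LPDS with a library left out. Family genes called in SG12 against SGCTRL went to 1 in FBS with the split term and 1 to 3 in LPDS with a library left out, in LPDS against FBS in SG12 to 1 without a filter and 1 to 2 with a library left out, and in SG21 against SGCTRL to 1 in FBS and 2 in LPDS with the split term and 1 to 2 in LPDS with a library left out. The split term is set by SG21 in LPDS alone, the only group on both sides, so its counts do not settle an effect of the split. The causes were not tested.

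Signs turned only for changes near 0 that did not pass. SNTB1 in SG21 against parental cells in LPDS was 0.02, with -0.0035 without a filter, -0.0116 with the stricter filter, -0.0909 with the split term and -0.107 to 0.0824 with a library left out. FXYD6 with LPDS in SG21 was 0.03, with -0.20 under the split term and -0.0676 to 0.157 with a library left out. With a library left out, SG21 against parental cells in FBS ranged from -0.26 to 0.29 for S100A1, -0.0698 to 0.123 for SNTB1 and -0.156 to 0.0061 for SAMD11, LPDS against FBS in parental cells from -0.0483 to 0.164 for SAMD11, and the response difference of SG21 from parental cells from -0.149 to 0.042 for SNTB1.

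Same-numbered replicates correlated by -0.119 to 0.196 over the pairs of groups checked, and the samples were not treated as paired. These correlations do not show whether a number stands for a shared batch. With the replicate as a block, 2 members passed in each medium in SG21 against parental cells, 1 with LPDS in SG21 and 1 in parental cells, as without it.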
